A study of Mus musculus with 28 samples.

Results

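The 9 genes described here are 6 matrix metalloproteinases (MMPs), Mmp2, Mmp3, Mmp9, Mmp10, Mmp13 and Mmp14, and 3 tissue inhibitors of metalloproteinases (TIMPs), Timp1, Timp2 and Timp3. They were taken by name from a table of 50600 genes, and each name matched 1 row. RNA-seq was compared across 28 libraries, 2 for each of 14 groups, to follow how the p38 inhibitor SB203580 (p38i) changed mouse embryonic fibroblasts (MEFs) and their reprogramming by retroviral Oct4, Klf4 and Sox2 (OKS). All cells were labelled WT and came from mid-gestation OG2 embryos, which carry an Oct4-GFP reporter, so every group shares that transgene. MEF.ctr cells had no treatment and MEF.p38i cells received SB203580, both without OKS. The groups ctr, p38i and pre_p38i all received OKS and were collected on days 1, 3, 5 and 7: ctr had no inhibitor, p38i had it during induction, and pre_p38i had it as MEFs before induction. The OKS cultures are mixtures of cells at different stages, and in such bulk samples fewer cells of a type and less RNA per cell cannot be told apart.

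MMPs are zinc-dependent proteases that cut extracellular matrix proteins, and they are made as inactive zymogens. Mmp2 and Mmp9 are the gelatinases, Mmp3 and Mmp10 are stromelysins, Mmp13 is the main interstitial collagenase of rodents, and Mmp14 is a membrane-anchored MMP that activates pro-Mmp2 at the cell surface. TIMPs bind the active site of MMPs. Timp2 also bridges pro-Mmp2 to Mmp14, Timp3 binds to the matrix and also inhibits some ADAM and ADAMTS proteases, and Timp1 is a secreted inhibitor and growth-modulating protein. Fibroblasts are a principal source of these proteins, and Mmp3, Mmp10 and Mmp13 are classical inducible genes downstream of MAP kinases and the AP-1 transcription factor, which joins Jun and Fos proteins.

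Positions of the 9 genes are those of the deposited table on GRCm38. Mmp13 (chr9:7272514-7283331), Mmp3 (chr9:7445822-7455975) and Mmp10 (chr9:7502352-7510240) lie on the + strand in a cluster of 10 Mmp genes that spans 427.1 kb in GENCODE M21. Of these 10 genes, 6 reached a value of 1 in at least 1 library. The other members are spread over the genome: Mmp2 at chr8:92827291-92853420, Mmp9 at chr2:164940780-164955850, Mmp14 at chr14:54431612-54441265, Timp1 at chrX:20870166-20874735, Timp2 at chr11:118301069-118355740 on the − strand, and Timp3 at chr10:86300372-86349506. All are protein coding. Timp1 and Timp3 lie within Syn1 and Syn3 on the opposite strand, and a 1733-base stretch of Timp3 transcript is shared with Syn3 annotation. Syn3 had a mean of 0.393 over the 28 libraries. Cep295nl overlaps Timp2 on the same strand, and 284 bases of Mmp3 transcript are 95.4% identical to Gm15242, which was at 0.

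Promoter sequence was held for 7 of the 9 genes in RefSeq (GRCm38.p6), and Mmp2 and Mmp9 had no entry. The 100 bases before the start site were searched on both strands for TGAGTCA, the consensus for AP-1, for GGGCGG, the GC box bound by Sp factors, for TATAAA, the core of a TATA box, and for AGGAAG, an ETS motif. The AP-1 letters were found in Mmp3, Mmp10 and Mmp13 and in none of Mmp14, Timp1, Timp2 and Timp3, while 1.88% of all 32851 RefSeq promoters held them in the same window. A GC box was found in Mmp14, Timp1, Timp2 and Timp3, against 24.7% of all promoters. AGGAAG was found in Mmp13 and Timp1 and in 13.8% of all promoters. No match overlapped a match of another motif. The windows of 5 genes are shown, the 3 with the AP-1 letters and 2 of those with a GC box. Capitals mark TGAGTCA (or TGACTCA on the other strand) in the first 3 and GGGCGG (or CCGCCC) in the last 2.
Mmp3, chr9:7445722-7445821, + strand: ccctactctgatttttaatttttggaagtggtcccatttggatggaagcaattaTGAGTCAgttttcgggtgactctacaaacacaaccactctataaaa
Mmp10, chr9:7502242-7502341, + strand: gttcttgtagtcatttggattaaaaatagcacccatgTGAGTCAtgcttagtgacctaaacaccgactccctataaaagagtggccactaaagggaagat
Mmp13, chr9:7272414-7272513, + strand: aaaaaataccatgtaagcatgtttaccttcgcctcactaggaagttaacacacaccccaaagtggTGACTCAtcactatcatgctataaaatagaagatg
Mmp14, chr14:54431498-54431597, + strand: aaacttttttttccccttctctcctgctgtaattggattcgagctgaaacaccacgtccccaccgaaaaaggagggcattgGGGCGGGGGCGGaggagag
Timp1, chrX:20870066-20870165, + strand: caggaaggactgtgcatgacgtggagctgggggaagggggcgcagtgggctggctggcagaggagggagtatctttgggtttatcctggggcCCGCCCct
The AP-1 letters began 46 bases before the RefSeq start of Mmp3, 63 before that of Mmp10 and 35 before that of Mmp13. For Mmp10 and Mmp14 the RefSeq start differs from the gene start of the deposited table given above. The same 3 windows also held TATAAA, which was present in 5.56% of all promoters. These matches describe letters in a window and not bound sites.

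The deposited values are whole numbers that sum to between 991287 and 992537 in each library. They were read as TPM (transcript abundance scaled per length and per library) rounded down. Levels of different genes can be set side by side on that scale, and 0 then means under 1. Sequencing depth is not known from such values, so no counting interval was computed. Differences are on the scale log2(value + 1) with their standard error (SE), and were tested with limma over the 13230 genes whose mean reached 1. A call means a Benjamini-Hochberg adjusted p under 0.05. All 9 members passed that minimum, Mmp9 only just, with a mean of 1.21. No source states that the 2 libraries of a group came from separate cultures, so p-values measure only the spread between these libraries. The 12 fibroblast markers were all measured, and their summed value fell from 16764 and 15964 in MEF.ctr to 3787 and 3978 in ctr on day 7. Vim alone averaged 2026.5 in the latter. Over the same span the means of Dcn (7 to 103), Lum (0 to 42.5), Fap (5 to 12) and Col3a1 (265.5 to 302.5) rose, and those of the other fibroblast markers fell. The summed value of 16 macrophage markers lay between 48 and 509 in all libraries. Of 7 endothelial markers Emcn and Tie1 were at 0 throughout and Pecam1, Cdh5 and Cldn5 at 0 to 2, while Tek averaged 39.4 and Kdr 3.29. Their sum was 2 to 4 in MEFs and 17 to 70 in the induced libraries.

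The 3 TIMPs and Mmp14 and Mmp2 were abundant in every group, and the other 4 MMPs were low. Timp1 had the highest mean over the 28 libraries at 701.0, ranging from 253 to 1526, followed by Timp2 at 551.0, from 78 to 885. Timp3 averaged 338.5, Mmp14 262.6 and Mmp2 108.4. Mmp3 averaged 24.8 with a highest library of 73, Mmp10 11.8 with a highest of 30, Mmp13 4.0 with a highest of 13, and Mmp9 1.21 with a highest of 6. The 5 abundant genes each had their lowest group mean in pre_p38i on day 7, and the 4 low MMPs were each at 0 in both MEF.p38i libraries.

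**Figure D1:**
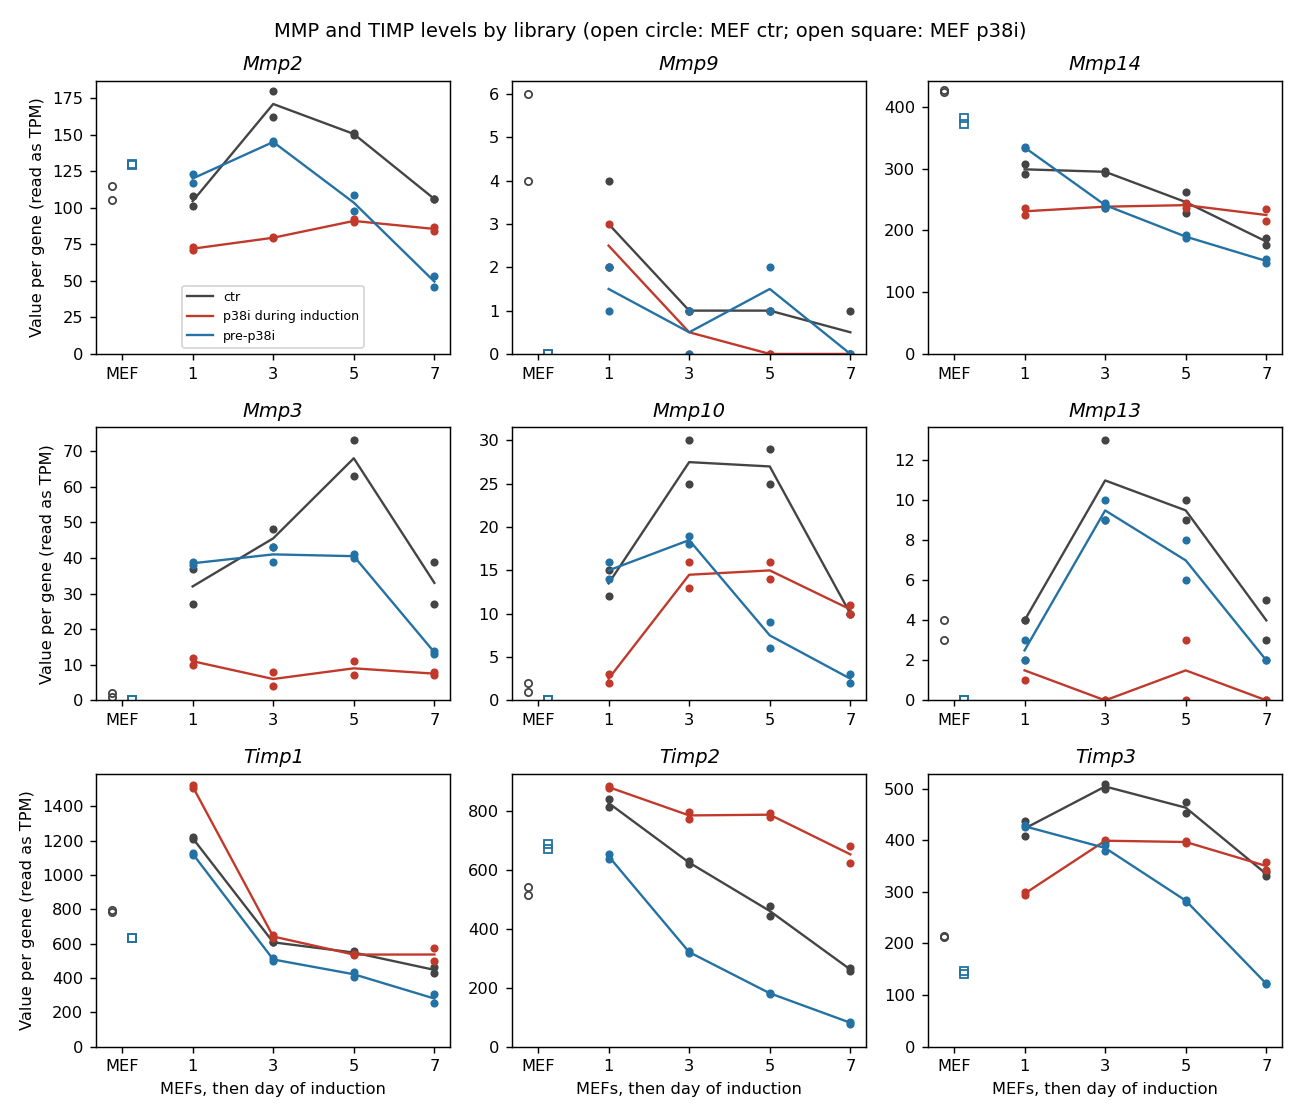
Each panel plots the value of 1 gene (read as TPM, linear axis from 0) against sample: MEFs at the left (open circles MEF.ctr, open squares MEF.p38i), then days 1, 3, 5 and 7 of induction, with points for libraries and lines through the means of ctr, p38i and pre_p38i. Mmp3 stays between 4 and 12 in the 8 p38i libraries. The Timp2 libraries of the 3 conditions do not overlap on any day, although p38i and ctr were not called different on day 1. On day 7 Timp2 runs from 623 and 682 in p38i to 78 and 85 in pre_p38i.

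In MEFs before induction, all 9 genes differed between MEF.p38i and MEF.ctr, 2 higher and 7 lower, where 17.9% of all genes tested were called, 9.73% higher and 8.15% lower. The 4 low MMPs were at 0 in both treated libraries. Mmp9 was at 4 and 6 in MEF.ctr, Mmp13 at 4 and 3, Mmp3 at 2 and 1, and Mmp10 at 2 and 1. All 4 were called (limma adjusted p from 0.000148 for Mmp9 to 0.000823 for Mmp3). Mmp3 and Mmp10 were near the lower limit of the scale in both groups.

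Among the abundant members the changes in MEFs were smaller. Timp3, the matrix-bound inhibitor, fell from 214 and 212 to 146 and 140 (log2 difference −0.57, SE 0.04, limma adjusted p = 3.29e-09). Timp1 fell from 796 and 787 to 631 and 632 (log2 difference −0.33, SE 0.07, limma adjusted p = 0.0022). Timp2 went the other way, from 541 and 514 to 686 and 672 (log2 difference 0.36, SE 0.05, limma adjusted p = 2.18e-05), so the inhibitors did not move together. Mmp2 was higher at 129 and 130 against 115 and 105 (0.23, SE 0.07, limma adjusted p = 0.0192), and Mmp14 lower at 372 and 382 against 424 and 428 (−0.18, SE 0.06, limma adjusted p = 0.0337). The Mmp2 call was lost without MEF.ctr replicate 2 or either MEF.p38i library (0.17 to 0.30, limma adjusted p up to 0.192), and the Mmp14 call without any 1 of the 4 libraries (−0.20 to −0.16, limma adjusted p up to 0.174) and after quantile normalization (−0.15, limma adjusted p = 0.0646). The macrophage marker sum was 337 and 318 in MEF.ctr and 219 and 221 in MEF.p38i, with 8 of its 13 tested genes lower and none higher. Of the 12 fibroblast markers 6 were lower and none higher. The sum of 8 skeletal markers went from 242 and 228 to 443 and 439, of which Col2a1, a cartilage collagen, was 204.5 and 413.0 on average, and 1 of the 3 tested was called, higher. Their part in the member differences was not tested.

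During control induction the stromelysins rose from near 0 and every abundant member was falling by the last interval. Between MEF.ctr and ctr on day 1, 5 of the 9 members rose and 1 fell, against 55.5% of all genes called, 36.6% higher and 18.9% lower. Like the other steps from MEFs to day 1, it also spans retroviral infection and a change to iCD1 medium in the paper's methods. Their parts in these differences were not tested. Mmp3 went from 2 and 1 to 27 and 37 (log2 difference 3.74, SE 0.24, limma adjusted p = 7.58e-11) and Mmp10 from 2 and 1 to 15 and 12 (2.56, SE 0.21, limma adjusted p = 2.20e-09). The 3 TIMPs rose as well, Timp3 the most, from 214 and 212 to 437 and 408 (0.98, SE 0.04, limma adjusted p = 3.01e-14). Mmp14 was the member that fell, from 424 and 428 to 307 and 291 (−0.51, SE 0.06, limma adjusted p = 1.62e-07). The median over all genes in this step was 0.14, smaller in size than each of these differences. It was −0.07 after quantile normalization.

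After day 1 the control levels diverged by gene and then fell. From day 1 to day 3, Mmp2, Mmp10, Mmp13 and Timp3 rose and Timp1 and Timp2 fell, where 44.5% of all genes were called, 20.5% higher and 24% lower. Timp1 fell from 1209 and 1222 to 608 and 609 (log2 difference −0.997, SE 0.07, limma adjusted p = 4.91e-10), whereas Mmp2 rose from 108 and 101 to 180 and 162 (0.70, SE 0.07, limma adjusted p = 5.22e-08). Mmp13 rose from 4 and 4 to 9 and 13, a call that was lost without either day 1 library or without ctr day 3 replicate 2 (1.00 to 1.49, limma adjusted p up to 0.127) and with a pseudocount of 0.1 (limma adjusted p = 0.228). From day 3 to day 5 no member rose and Mmp14, Timp2 and Timp3 fell, against 19.4% of all genes called, 13.8% higher and 5.57% lower. Mmp3 had its highest group mean on day 5, at 73 and 63. From day 5 to day 7, 7 members fell and none rose, where 26.7% of all genes were called, 10.3% higher and 16.4% lower. The largest falls among the called members were those of Mmp10, from 29 and 25 to 10 and 10 (−1.34, SE 0.21, limma adjusted p = 8.34e-05), and Mmp3, to 27 and 39 (−1.04, SE 0.24, limma adjusted p = 0.00354). The Mmp3 call was lost without ctr day 7 replicate 1 (−1.30 to −0.78 over single libraries left out). Mmp13 went from 9 and 10 to 3 and 5 and was not called (−1.10, SE 0.40, limma adjusted p = 0.0511). The call for Timp1 in this step was lost without ctr day 7 replicate 2 (−0.35 to −0.24, limma adjusted p up to 0.0567), that for Mmp14 from day 3 to day 5 without ctr day 5 replicate 1 (−0.36 to −0.17, limma adjusted p up to 0.0548), and that for Timp3 in the same step without either day 3 library or ctr day 5 replicate 1 (−0.16 to −0.09, limma adjusted p up to 0.218).

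With p38i present during induction Mmp3 was below ctr on all 4 days and Mmp13 on days 3, 5 and 7, and Mmp10 was below ctr until day 5. The comparisons of p38i and of pre_p38i with ctr share the same control libraries, so the values of each are given side by side and not related to each other. On days 1, 3, 5 and 7, 5, 6, 5 and 3 members were lower in p38i than in ctr and 1, 1, 1 and 3 were higher, where 16.1%, 21.4%, 26.6% and 34.1% of all genes were called. Of all genes, 12.6%, 16.2%, 18.7% and 17.6% were lower and 3.47%, 5.22%, 7.87% and 16.5% higher. Mmp3 was at 10 and 12, 4 and 8, 7 and 11, and 7 and 8 in p38i on these days. In ctr it was at 27 and 37, 43 and 48, 73 and 63, and 27 and 39. The log2 differences were −1.45, −2.79, −2.81 and −1.98, SE 0.24 each (limma adjusted p = 0.000343, 7.70e-08, 7.27e-08 and 3.80e-06).

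Mmp13, the collagenase of the same cluster, was listed at 0 in both p38i libraries on days 3 and 7. On days 1 and 5 its values were 1 and 2 and 3 and 0. The ctr libraries of days 1, 3, 5 and 7 held 4 and 4, 9 and 13, 9 and 10, and 3 and 5. The difference was called on days 3, 5 and 7 (limma adjusted p = 2.32e-06, 0.000194 and 0.0002) and not on day 1 (limma adjusted p = 0.0950).

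Mmp10 followed a different course from Mmp3 and Mmp13. It was lower on day 1, at 2 and 3 in p38i against 15 and 12 (log2 difference −2.06, SE 0.21, limma adjusted p = 1.06e-06). On days 3 and 5 it was at 13 and 16 and at 14 and 16, against 25 and 30 and 29 and 25 in ctr (−0.88 and −0.81, SE 0.21 each, limma adjusted p = 0.0045 and 0.00713). On day 7 the libraries overlapped, at 11 and 10 in p38i and 10 and 10 in ctr, with a difference of 0.06 and a 95% interval from −0.37 to 0.50. The day 3 call was lost without ctr day 3 replicate 2 or p38i day 3 replicate 1 (−1.02 to −0.74, limma adjusted p up to 0.0613) and the day 5 call without ctr day 5 replicate 1 or p38i day 5 replicate 1 (−0.91 to −0.70, limma adjusted p up to 0.0645).

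The gelatinase Mmp2 was lower in p38i on all 4 days. It stood at 71 and 73 in p38i on day 1 and 80 and 79 on day 3, against 108 and 101 and 180 and 162 in ctr. The log2 difference was −0.53, −1.09, −0.72 and −0.31 on days 1, 3, 5 and 7, SE 0.07 each (limma adjusted p = 1.62e-05, 7.88e-10, 1.75e-07 and 0.00141). Mmp14, its activator, stayed flat in p38i, between 216 and 245 in all 8 libraries. Its ctr values fell from 307 and 291 on day 1 to 176 and 188 on day 7, so that Mmp14 was lower in p38i on day 1 (−0.37, SE 0.06, limma adjusted p = 0.000104) and higher on day 7 (0.30, SE 0.06, limma adjusted p = 0.000284). Mmp9, the other gelatinase, was at 0 to 3 in the 8 p38i libraries and at 0 to 4 in the ctr libraries, and no single day was called.

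Timp2 was the member with the largest positive difference between p38i and ctr. In p38i it was at 876 and 885, 796 and 773, 794 and 780, and 682 and 623 on days 1, 3, 5 and 7. In ctr it fell through 839 and 814, 630 and 619, and 443 and 478 to 258 and 266. The log2 differences were 0.09, 0.33, 0.77 and 1.31, SE 0.05 each (limma adjusted p = 0.226, 5.29e-05, 1.05e-09 and 9.22e-13). Timp1 was higher in p38i on day 1, at 1526 and 1507 against 1209 and 1222 (0.32, SE 0.07, limma adjusted p = 0.00299), and on day 7, at 574 and 501 against 466 and 430 (0.26, SE 0.07, limma adjusted p = 0.00617). The day 7 call for Timp1 was lost without ctr day 7 replicate 2 or p38i day 7 replicate 1 (0.16 to 0.36, limma adjusted p up to 0.131). Timp3 was lower on days 1, 3 and 5, most on day 1 at 299 and 294 against 437 and 408 (−0.51, SE 0.04, limma adjusted p = 2.99e-08), and not called on day 7 at 343 and 357 against 330 and 339.

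Averaged over the 4 days, p38i was lower than ctr for Mmp2, Mmp3, Mmp9, Mmp10, Mmp13, Mmp14 and Timp3 and higher for Timp1 and Timp2, where 47.9% of all genes were called, 14.9% higher and 33% lower. The Mmp9 call in this average rested on values of 0 to 4 and was lost without most single libraries of the 16, namely both on ctr days 3 and 5 and on p38i days 5 and 7, the first of ctr day 1 and p38i day 1 and the second of ctr day 7 and p38i day 3 (−0.67 to −0.42, limma adjusted p up to 0.103). It was also lost after quantile normalization (−0.23, limma adjusted p = 0.294). The Mmp14 average was −0.10 (SE 0.03) and the median over all genes was −0.07. With median of ratios scaling the call was lost (limma adjusted p = 0.0774). Of the 13 macrophage markers tested, 11 were lower in p38i and 1 was higher in the same average, and the marker sum was 195 to 266 in the p38i libraries and 272 to 509 in ctr. Of the 12 fibroblast markers, 8 were lower and 3 higher in that average, but on day 7 none was lower and 4 were higher, with sums of 5149 and 5123 against 3787 and 3978. Of the 7 tested epithelial markers 6 were lower, with sums of 222 and 203 against 492 and 463 on day 7. Of the 3 tested skeletal markers 1 was lower. Whether any of these lists has a part in the member differences was not tested.

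**Figure D2:**
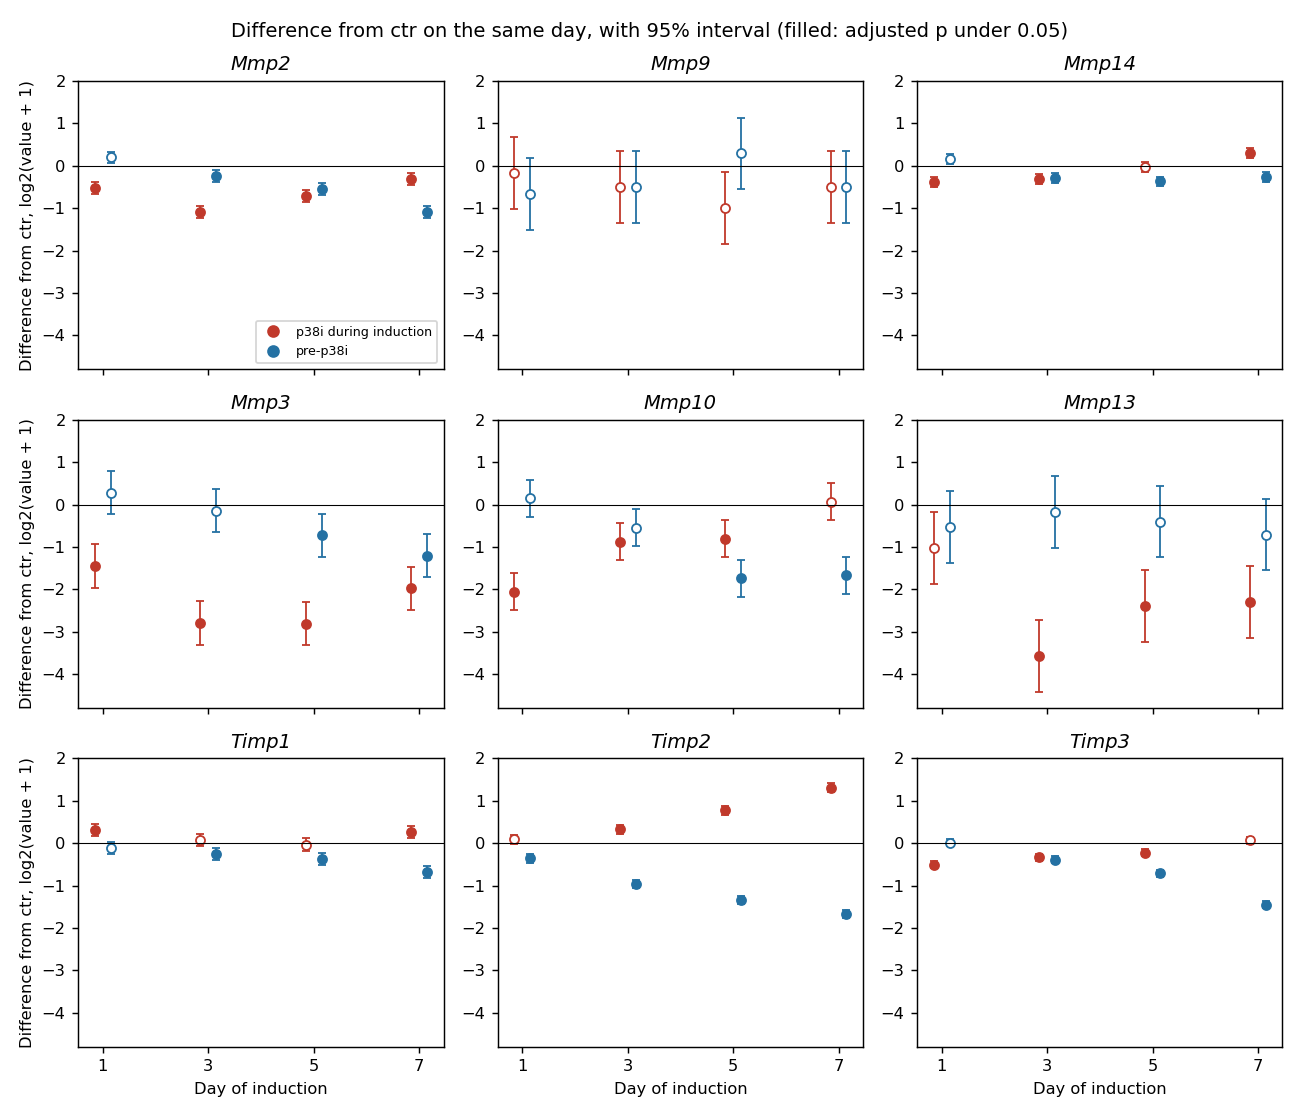
Each panel plots, for 1 gene, the difference from ctr on the same day in log2(value + 1) against the day of induction, for p38i (red) and pre_p38i (blue), with the 95% interval; filled points have an adjusted p under 0.05 (limma). Timp2 rises to 1.31 in p38i and falls to −1.67 in pre_p38i by day 7, and Mmp3 is at −2.79 and −2.81 on days 3 and 5 in p38i.

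In cells pretreated with p38i the median member was close to control on day 1 and lower on each later day, but not every member was. The Mmp14 difference did not grow from day 3 to day 7, and Mmp9 and Mmp13 were called on no day. On days 1, 3, 5 and 7, 1, 5, 7 and 7 members were lower than in ctr and none was higher, where 11.6%, 20.6%, 25.6% and 29.9% of all genes were called. Of all genes, 6.24%, 6.87%, 11.3% and 14.5% were lower and 5.4%, 13.8%, 14.3% and 15.4% higher. The median difference of the 9 members was 0.02, −0.29, −0.54 and −1.09 on these days, beside 0, 0.07, 0.04 and 0.05 over all genes tested. By day 7 the TIMPs Timp2 and Timp3 and the stromelysin Mmp10 had the largest differences.

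Timp2 was the 1 member already called on day 1 in pre_p38i, at 638 and 654 against 839 and 814 in ctr (log2 difference −0.35, SE 0.05, limma adjusted p = 6.48e-05). It stood at 318 and 324, 184 and 179, and 85 and 78 on days 3, 5 and 7. The ctr libraries held 630 and 619, 443 and 478, and 258 and 266. The difference was −0.96, −1.34 and −1.67 on days 3, 5 and 7 (limma adjusted p = 7.11e-11, 4.49e-13 and 5.93e-15). Timp3 was not called on day 1, at 425 and 429 against 437 and 408, and was down to 123 and 121 against 330 and 339 on day 7 (−1.45, SE 0.04, limma adjusted p = 3.11e-15). Timp1 was lower by less, at 309 and 253 against 466 and 430 on day 7 (−0.68, SE 0.07, limma adjusted p = 3.34e-07).

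Among the MMPs of pre_p38i cells, Mmp10, Mmp3 and Mmp2 had the largest differences from ctr on day 7, in that order, and Mmp13 and Mmp9 were not called on any day. Mmp10 was at 14 and 16, 18 and 19, 9 and 6, and 3 and 2 on days 1, 3, 5 and 7. The day 5 and day 7 differences from ctr were −1.74 and −1.67, SE 0.21 each (limma adjusted p = 4.07e-06 and 4.77e-06). Mmp2 was at 117 and 123, 144 and 146, 109 and 98, and 53 and 46, highest on day 3 as in ctr and on day 7 below every other group (−1.09 from ctr, SE 0.07, limma adjusted p = 3.76e-10). Mmp3 was not called on days 1 and 3, at 38 and 39 and at 39 and 43 against 27 and 37 and 43 and 48, and it was at 14 and 13 on day 7 against 27 and 39 (−1.21, SE 0.24, limma adjusted p = 0.000865). Mmp14 was lower on days 3, 5 and 7, by −0.29, −0.37 and −0.27 (SE 0.06). Mmp13 was at 3 and 2, 9 and 10, 8 and 6, and 2 and 2, with differences of −0.17 to −0.71 from ctr (SE 0.40), and Mmp9 at 0 to 2.

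Calls for Mmp2, Timp1 and Mmp3 depended on single libraries. That for Mmp2 on day 3 was lost without ctr day 3 replicate 1 or either pre_p38i day 3 library (−0.31 to −0.16, limma adjusted p up to 0.207), that for Timp1 on day 3 without either ctr day 3 library or pre_p38i day 3 replicate 1 (−0.28 to −0.24, limma adjusted p up to 0.0832), and that for Mmp3 on day 5 without any 1 of the 4 day 5 libraries (−0.83 to −0.63, limma adjusted p up to 0.173) and with a pseudocount of 0.1 (limma adjusted p = 0.0850). Averaged over the 4 days, 7 members were lower in pre_p38i, with Mmp9 and Mmp13 not called, where 45% of all genes were called, 27.3% higher and 17.7% lower. All 12 fibroblast markers and all 13 tested macrophage markers were lower in the same average, and 5 of 7 tested epithelial markers were higher. The macrophage marker sum was 48 to 197 in pre_p38i and 272 to 509 in ctr. The epithelial sum on day 7 was 913 and 953 against 492 and 463. Their part in the member differences was not tested.

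Set directly against each other, p38i exceeded pre_p38i in Timp1 and Timp2 on every day, while 4 other members changed direction between day 1 and day 7. On days 1, 3, 5 and 7, 2, 2, 5 and 6 members were higher in p38i than in pre_p38i and 5, 3, 4 and 2 were lower, where 28.2%, 42.2%, 47.5% and 54.3% of all genes were called. Of all genes, 8.25%, 10.7%, 16.3% and 24.8% were higher and 19.9%, 31.4%, 31.1% and 29.5% lower, and the all-gene median was −0.16 on day 3 and −0.12 on day 5. On the average over days 4 members were higher and 3 lower, where 65.2% of all genes were called, 21.9% higher and 43.4% lower. The Timp2 difference was 0.45, 1.29, 2.11 and 2.99 on days 1, 3, 5 and 7, SE 0.05 each (limma adjusted p = 8.67e-07, 2.27e-13, 1.33e-16 and 2.06e-19), and on day 7 the libraries were at 682 and 623 against 85 and 78. The Timp1 difference was 0.43, 0.34, 0.35 and 0.94 (SE 0.07, limma adjusted p = 8.67e-05, 0.000581, 0.000366 and 8.82e-10). Timp3 changed direction, from −0.52 on day 1 (limma adjusted p = 6.91e-09) to 1.51 on day 7 (limma adjusted p = 2.75e-16), SE 0.04 each.

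Mmp2, Mmp10 and Mmp14 turned in the same way between the 2 windows as Timp3. Each was lower in p38i on day 1 and higher on day 7: Mmp10 went from −2.20 to 1.73 (SE 0.21, limma adjusted p = 1.53e-07 and 8.58e-07), Mmp2 from −0.73 to 0.78 (SE 0.07, limma adjusted p = 1.10e-07 and 8.66e-09), and Mmp14 from −0.53 to 0.58 (SE 0.06, limma adjusted p = 5.61e-07 and 4.42e-08). Mmp3 was lower in p38i on all 4 days, by −1.72, −2.64, −2.08 and −0.77 (SE 0.24, limma adjusted p = 2.29e-05, 5.40e-08, 9.03e-07 and 0.0116). The last of these was lost without replicate 1 of p38i or of pre_p38i on day 7 (−0.86 to −0.69, limma adjusted p up to 0.0731). Mmp13 was lower on days 3, 5 and 7, with 5 of 6 p38i libraries at 0. Day 5 also gave a lower Mmp2 (−0.18, SE 0.07, limma adjusted p = 0.0317) and a lower Mmp9, listed at 0 in both p38i libraries and at 1 and 2 in pre_p38i. Both calls were lost without p38i day 5 replicate 2, the Mmp2 call also without p38i replicate 1 or pre_p38i replicate 1 and the Mmp9 call without pre_p38i replicate 2 of that day (limma adjusted p up to 0.309 for Mmp2). The Mmp2 call was also lost after quantile normalization (−0.10, limma adjusted p = 0.248) and with median of ratios scaling (−0.07, limma adjusted p = 0.453). Marker lists differed in the same comparison. On day 7 all 12 fibroblast markers and 11 of 13 macrophage markers were higher in p38i than in pre_p38i and none was lower, and 6 of 7 epithelial markers were lower. On day 1 the fibroblast list had 3 higher and 5 lower, the macrophage list 7 higher and 1 lower, and the epithelial list 1 higher and 4 lower. Their part in the member differences was not tested.

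Levels of Timp2 and Mmp3 over all 14 groups show how far the conditions spread. The group means of Timp2 ran from 880.5 in p38i on day 1 through 826.5 in ctr on day 1, 787.0 and 784.5 in p38i on days 5 and 3, 679.0 in MEF.p38i, 652.5 in p38i on day 7, 646.0 in pre_p38i on day 1, 624.5 in ctr on day 3, 527.5 in MEF.ctr and 460.5 in ctr on day 5 to 321.0 in pre_p38i on day 3, 262.0 in ctr on day 7, and 181.5 and 81.5 in pre_p38i on days 5 and 7. Neighbours in this order whose libraries overlapped were p38i on days 5 and 3, MEF.p38i and p38i on day 7, and p38i on day 7 and pre_p38i on day 1. The Mmp3 means were 68.0 and 45.5 in ctr on days 5 and 3, 41.0, 40.5 and 38.5 in pre_p38i on days 3, 5 and 1, 33.0 and 32.0 in ctr on days 7 and 1, 13.5 in pre_p38i on day 7, 11.0, 9.0, 7.5 and 6.0 in p38i on days 1, 5, 7 and 3, 1.5 in MEF.ctr and 0 in MEF.p38i. The libraries of ctr on day 5 stood clear of the next group, those from 45.5 down to 32.0 overlapped with at least 1 neighbour, and the 4 p38i groups overlapped with each other in a chain. Mmp3 in p38i on any day was nevertheless above both MEF groups.

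The change from day 1 to day 7 within a condition differed between conditions for several members. In ctr 5 members fell and none rose, in p38i 4 fell and 3 rose, and in pre_p38i 8 fell and none rose. Of all genes 54.6%, 54.9% and 63.6% were called, 26.1%, 22% and 27.5% lower and 28.4%, 32.8% and 36.1% higher. The 3 that rose in p38i were Mmp10, from 2 and 3 to 11 and 10 (log2 difference 1.73, SE 0.21, limma adjusted p = 7.78e-07), Mmp2 (0.24, SE 0.07, limma adjusted p = 0.00443) and Timp3 (0.24, SE 0.04, limma adjusted p = 3.74e-05). Among the falls, those of Mmp9 in ctr rested on ctr day 1 replicate 1 and ctr day 7 replicate 1 and in pre_p38i on pre_p38i day 1 replicate 2, and that of Mmp13 in p38i on p38i day 1 replicate 2 (limma adjusted p up to 0.103, 0.0944 and 0.108 without them). The difference from ctr on day 7 minus that on day 1 was tested directly: in p38i it was higher for 4 members and lower for none, and in pre_p38i lower for 7 and higher for none, where 21.6% and 16.7% of all genes were called (14.1% and 7.25% higher, 7.55% and 9.43% lower). In p38i the 4 were Mmp10, Mmp14, Timp2 and Timp3, and in pre_p38i the 2 that were not called were Mmp9 and Mmp13.

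Of the 9 differences called in inhibitor-treated MEFs, only that of Timp2 was called 1 day after induction in pre_p38i, with the opposite sign. Of the 4 MMPs at 0 in MEF.p38i, Mmp3 was at 38 and 39 in pre_p38i on day 1 against 27 and 37 in ctr. Mmp10 was at 14 and 16 against 15 and 12, Mmp13 at 3 and 2 against 4 and 4, and Mmp9 at 1 and 2 against 4 and 2. None of these 4 day 1 differences was called (limma adjusted p from 0.342 to 0.741). The pretreatment difference on day 1 minus that in MEFs was positive and called for Mmp3, Mmp9, Mmp10, Mmp14 and Timp3 and negative for Timp2, a count of 6 of 9 where 7.95% of all genes were called, 3.59% higher and 4.36% lower. It was not called for Mmp2, Mmp13 and Timp1. A missing call does not show that the difference in MEFs was kept on day 1, so this was left undecided. Mmp13 was −2.16 in MEFs and −0.53 on day 1 (SE 0.40 each, limma adjusted p = 0.000771 and 0.470). The Mmp13 difference on day 1 minus that in MEFs was 1.63 (SE 0.57, limma adjusted p = 0.0937). Mmp2 was higher by 0.23 in MEFs and 0.20 on day 1 (SE 0.07 each, limma adjusted p = 0.0192 and 0.0631). The difference between these was −0.04 (SE 0.09, limma adjusted p = 0.888). Timp1 was −0.33 in MEFs and −0.11 on day 1 (limma adjusted p = 0.0022 and 0.346). The Timp1 difference on day 1 minus that in MEFs was 0.21 (SE 0.10, limma adjusted p = 0.212). For Mmp13 and Timp1 the estimate was thus smaller in size on day 1, and for Mmp2 it was similar. For Timp2 the sign itself changed, from 0.36 in MEFs to −0.35 on day 1, and the difference between them was −0.72 (SE 0.07, limma adjusted p = 9.54e-07). Of all genes 56% were called from MEF.p38i to pre_p38i on day 1 (35.3% higher, 20.7% lower), with 6 members higher and 1 lower, and 55.5% from MEF.ctr to p38i on day 1 (32.2% higher, 23.3% lower), with 5 higher and 2 lower. In the first step the Mmp9 call was lost without pre_p38i day 1 replicate 2 and the Mmp14 call without that library or MEF.p38i replicate 2 (limma adjusted p up to 0.105 and 0.0804), and in the second the Mmp10 call was lost without MEF.ctr replicate 2 or p38i day 1 replicate 2 (limma adjusted p up to 0.499) or after quantile normalization (0.10, limma adjusted p = 0.731). Timp2 was not called within the pretreated arm, at 686 and 672 in MEF.p38i and 638 and 654 on day 1 (−0.07, SE 0.05, limma adjusted p = 0.221), whereas from MEF.ctr to ctr it rose by 0.65 (SE 0.05, limma adjusted p = 5.89e-10) and from MEF.ctr to p38i by 0.74 (SE 0.05, limma adjusted p = 7.81e-11). In the day 1 difference minus that in MEFs, the Mmp9 call was lost without 7 of the 8 single libraries, all but ctr day 1 replicate 1 (1.54 to 2.27). It was also lost under both other pseudocounts, no filter, both replicate blocks and quantile normalization (limma adjusted p up to 0.0896). The Mmp14 call was lost without ctr day 1 replicate 2 (0.30 to 0.38).

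**Figure D3:**
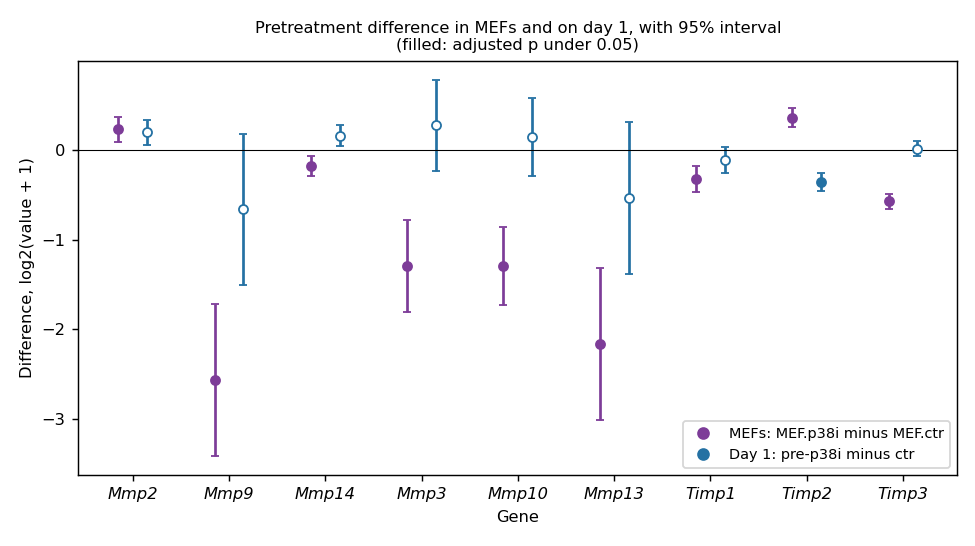
For each of the 9 genes the plot gives the difference in log2(value + 1) with its 95% interval between MEF.p38i and MEF.ctr (purple) and between pre_p38i and ctr on day 1 (blue); filled points have an adjusted p under 0.05 (limma). All 9 differences are filled in MEFs and only that of Timp2, at −0.35, is filled on day 1.

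Summed over members, TIMP mRNA exceeded MMP mRNA in every library, by a ratio that depended on condition. The 3 TIMPs together were at 1532.0 ± 26.9 (SD, n = 2) in MEF.ctr and 1453.5 ± 13.4 in MEF.p38i, and the 6 MMPs at 547.5 ± 4.95 and 506.5 ± 7.78. On day 1 the TIMP sum was 2693.5 ± 10.6 in p38i, 2464.5 ± 29.0 in ctr and 2198.0 ± 7.07 in pre_p38i. By day 7 it was 1540.0 ± 83.4, 1044.5 ± 13.4 and 484.5 ± 46.0. The p38i sum on day 7 was close to those of the MEFs, and that of pre_p38i was the lowest of the 14 groups. The TIMP sum divided by the MMP sum was 2.80 ± 0.02 in MEF.ctr and 2.87 ± 0.07 in MEF.p38i. It was 8.40 ± 0.06 in p38i, 5.41 ± 0.09 in ctr and 4.29 ± 0.03 in pre_p38i on day 1, and 4.69 ± 0.04, 3.12 ± 0.22 and 2.22 ± 0.11 on day 7. These are ratios of mRNA, formed after the members' differences were known, and carry no test.

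**Figure D4:**
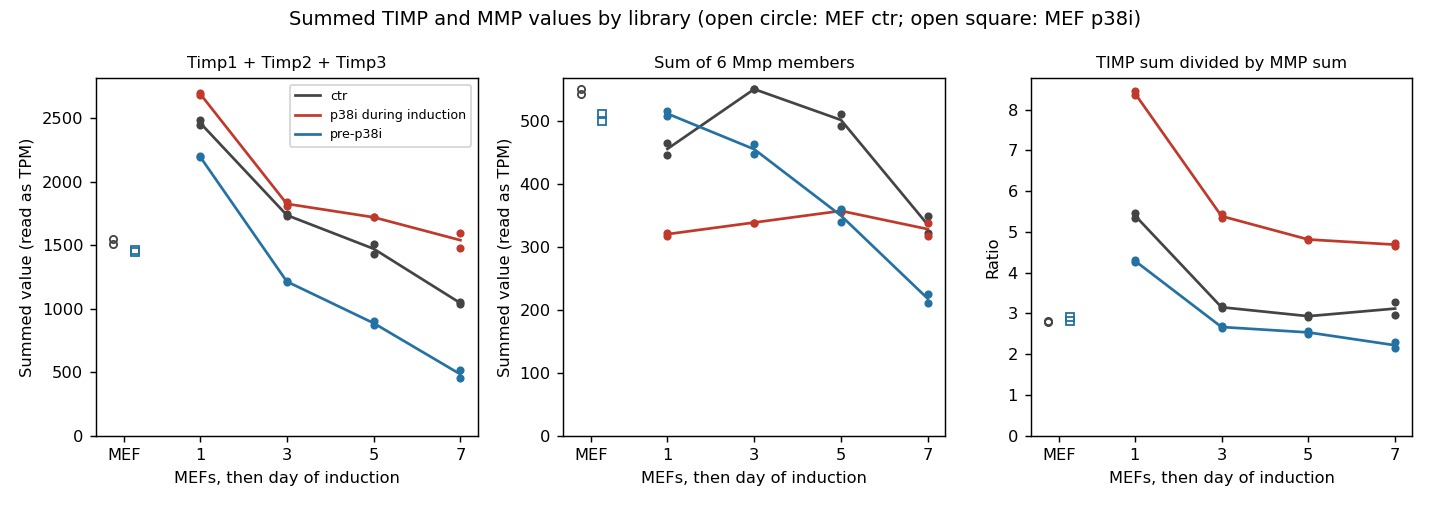
The left and middle panels plot the summed value (read as TPM) of the 3 TIMPs and of the 6 MMPs per library, and the right panel their ratio, against MEFs and day of induction, with lines through the means of ctr, p38i and pre_p38i. The p38i ratio lies above ctr on every day, from 8.40 on day 1 to 4.69 on day 7, and the pre_p38i ratio lies below.

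The make-up of the TIMP sum shifted as well. Timp2 was 34.4% ± 0.64 (SD, n = 2) of it in MEF.ctr and 46.7% ± 0.25 in MEF.p38i. On day 7 it was 25.1% ± 0.86 in ctr, 42.4% ± 0.41 in p38i and 16.9% ± 0.58 in pre_p38i. Timp1 made up 57.9% ± 2.68 in pre_p38i on day 7, against 42.9% ± 1.89 in ctr.

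Members were also compared between neighbouring days, pre_p38i with a later ctr day and p38i with an earlier one. Between pre_p38i on day 5 and ctr on day 7, 2 members differed, both lower, where 14.3% of all genes were called, 9.96% higher and 4.36% lower. These were Timp2, at 184 and 179 against 258 and 266 (log2 difference −0.53, SE 0.05, limma adjusted p = 6.91e-07), and Timp3, at 281 and 285 against 330 and 339 (−0.24, SE 0.04, limma adjusted p = 0.00036). For Mmp2 the 2 groups overlapped, at 109 and 98 against 106 and 106, with a 95% interval of the difference from −0.18 to 0.10. Between p38i on day 7 and ctr on day 5, 5 members were lower and 1 was higher, where 23.6% of all genes were called, 8.4% higher and 15.2% lower. Mmp3 was at 7 and 8 against 73 and 63 (−3.02, SE 0.24, limma adjusted p = 3.15e-08), Mmp13 was at 0 and 0 against 9 and 10, and Timp2 was higher at 682 and 623 against 443 and 478 (0.50, SE 0.05, limma adjusted p = 3.44e-07).

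Most of the remaining MMP and TIMP genes were at or near 0. Of 18 such genes 8 had a mean of at least 1, and Timp4, Mmp7, Mmp8, Mmp20, Mmp21, Mmp24 and Mmp27 were at 0 in all 28 libraries. Averaged over days, 2 were higher and 1 lower in p38i than in ctr, where 14.9% of all genes were higher and 33% lower. In pre_p38i 3 were lower, where 27.3% of all genes were higher and 17.7% lower. The 3 highest were Mmp28 (epilysin), with a mean of 32.3, Mmp11 (stromelysin 3), with 20.2, and Mmp12 (macrophage elastase), with 13.6. Mmp12, the neighbour of Mmp13 in the cluster, had a mean-of-days difference of 0.27 in p38i (SE 0.10, limma adjusted p = 0.0388) and −1.60 in pre_p38i (SE 0.10, limma adjusted p = 3.06e-10). Mmp19 was lower in both, by −0.42 and −0.52 (SE 0.09, limma adjusted p = 0.000553 and 6.40e-05), and Mmp17 was higher in p38i by 0.45 (SE 0.15, limma adjusted p = 0.0226) at values of 0 to 3.

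Genes that act with the MMPs were called in both directions in p38i and mostly lower in pre_p38i. Of 10 tested genes for activation, inhibition and clearance, 2 were higher and 6 lower in p38i, and 9 were lower and none higher in pre_p38i, on the average over days. For that average 14.9% of all genes were higher and 33% lower in p38i, and 27.3% higher and 17.7% lower in pre_p38i. On day 1 alone 7 were lower and 1 higher in pre_p38i, where 6.24% of all genes were lower and 5.4% higher. Bsg (basigin, an inducer of MMPs) had a mean of 857.5 and Serpine2 (protease nexin) of 374.1. Plat, tissue plasminogen activator, was 0.64 higher in p38i (SE 0.05, limma adjusted p = 8.52e-10), and Plaur, the urokinase receptor, 0.99 lower on the same scale (difference −0.99, SE 0.05, limma adjusted p = 9.18e-12). Lrp1, the receptor that clears MMPs and TIMPs from the cell surface, was chosen after its values were seen: it was −0.80 in pre_p38i (limma adjusted p = 4.25e-12) and −0.01 in p38i (limma adjusted p = 0.789).

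Of 15 tested ADAM and ADAMTS proteases, some of which Timp3 can inhibit, 3 were higher and 7 lower in p38i on the average over days. In pre_p38i 7 were lower. The shares of all genes were 14.9% higher and 33% lower in p38i, and 27.3% higher and 17.7% lower in pre_p38i. Adam15, Adam9 and Adam19 were the highest, with means of 229.5, 212.6 and 110.2. Adamts14, a procollagen N-propeptidase, was 0.57 in p38i (SE 0.07, limma adjusted p = 2.80e-06) and −0.88 in pre_p38i (SE 0.07, limma adjusted p = 1.13e-08), and Adam12 was −0.88 in p38i (SE 0.14, limma adjusted p = 5.07e-05).

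The AP-1 subunits, whose consensus letters lie before Mmp3, Mmp10 and Mmp13, were called in both directions in p38i. Of 7 subunits 2 were higher and 2 lower in p38i, and 4 were lower in pre_p38i, on the average over days. Of all genes, 14.9% were higher and 33% lower in p38i, and 27.3% higher and 17.7% lower in pre_p38i. Jund, the most abundant with a mean of 200.1, was 0.42 in p38i (SE 0.04, limma adjusted p = 2.79e-08). Jun (mean 82.4) was 0.14 in p38i (limma adjusted p = 0.0037) and Junb (75.5) −0.39 (limma adjusted p = 4.70e-06). Fosl1, a Fos family subunit of growing fibroblasts, was −0.58 in p38i (limma adjusted p = 1.47e-08) and −0.60 in pre_p38i (limma adjusted p = 1.03e-08).

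Genes whose pattern over the 14 group means was most like each member were listed by Pearson's r of log2(value + 1) among 10668 genes with a mean of at least 5. Such r values describe shared patterns over 14 points that share conditions and days. For Mmp3 they were Tnfsf9 (r = 0.985), G6pdx (0.968) and Aim1 (0.966), and for Mmp10 Lancl3 (0.951), Plxnb2 (0.951) and Ube2ql1 (0.941). Mmp13 was most like Mlkl (0.903), Zufsp (0.894) and Nr4a1 (0.892), and Mmp9 most like Pi4k2b (0.889), Rmdn2 (0.867) and Ece2 (0.85). Mmp2 was most like Lrrc8a (0.878), Mmp19 (0.862) and Prkcdbp (0.859). Mmp14 was closest to Adamts12 (0.976), Itgav (0.974) and Cdh11 (0.964). Timp1 was closest to Hras (0.971), Nus1 (0.97) and Fxyd5 (0.97), Timp2 was like Cdkn2b (0.978) and Lama2 (0.974), and Timp3 was closest to Snhg18 (0.957), Serinc3 (0.951) and Tmem159 (0.948). Between members, the highest r were 0.893 for Mmp10 and Timp3, 0.791 for Mmp3 and Mmp10, 0.766 for Timp1 and Timp2 and 0.75 for Mmp3 and Mmp13, and the lowest −0.424 for Mmp3 and Mmp14.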

How the data were processed

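Poly(A)-selected RNA of 28 libraries was sequenced. The authors deposited 1 score per gene and library, in whole numbers. From their totals these were read as TPM rounded down, which keep no depth. The submitters' processing notes name bcl2fastq, Bowtie2 2.2.5 and RSEM 1.3.0 and the builds hg38 and mm10, with no role given. Of the identifiers, 99.6% are in GENCODE M21 (GRCm38). Groups and replicate numbers came from the sample titles. Kit, extraction reagent and MEF medium differ between labels and paper, and the control of the induced groups is DMSO in the paper.

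Differences were computed with limma 3.58.1 (R 4.3.3, trended eBayes) from log2(value + 1) of the 13230 genes whose mean reached 1, all 14 groups in 1 model, with Benjamini-Hochberg adjustment over all genes. An exact permutation test of 2 against 2 libraries cannot go below 0.333 and was not used. The fit was tested on simulated data for p38i against ctr on day 7, with changes given only to genes of a mean of at least 5. That test does not cover genes as low as Mmp9 and Mmp13. Alternatives were other pseudocounts, filters and scalings, a replicate block, the compared groups alone and leaving out each library. The members and all gene lists were chosen with earlier results of these data known. From other lists the 3 highest genes and the called genes with the largest rise and fall over days were named. Some genes that this rule or the likeness list would name are not reported here. The marker lists are given by counts and sums. Near-identical transcripts were sought with BLAST 2.17.0+ (at least 95% identity over 200 bases).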

Additional observations from a re-analysis of the deposited data

Results flagged for a closer look

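The difference between groups itself passed the test for the results given here (limma, adjusted p in brackets). All values are in log2(value + 1). The difference between p38i and ctr on day 7 minus that on day 1 was 2.12 for Mmp10 (4.13e-05), 0.67 for Mmp14 (6.17e-06), 1.22 for Timp2 (6.25e-10) and 0.57 for Timp3 (6.08e-07). The same quantity for pre_p38i against ctr was −1.28 for Mmp2 (1.52e-08), −1.48 for Mmp3 (0.00527), −1.81 for Mmp10 (0.000223), −0.43 for Mmp14 (0.000671), −0.57 for Timp1 (0.000401), −1.32 for Timp2 (1.85e-10) and −1.46 for Timp3 (1.54e-12). Both sets use the same ctr libraries.

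The pretreatment difference on day 1 minus the inhibitor difference in MEFs was 1.57 for Mmp3 (limma, adjusted p = 0.00716), 1.90 for Mmp9 (0.0462), 1.44 for Mmp10 (0.00427), 0.34 for Mmp14 (0.0108), −0.72 for Timp2 (9.54e-07) and 0.59 for Timp3 (8.66e-07). Mmp3, Mmp9 and Mmp10 were listed at 0 in both MEF.p38i libraries, so the sizes of their values depend on the pseudocount. The Mmp9 call itself was lost under both other pseudocounts, under both replicate blocks and without most single libraries.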

How the results depend on the processing

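Of 270 member differences 187 were called, and 135 of these kept the call under all alternatives. Of the 52 that did not, 26 lost it only when the compared groups were fitted alone. That fit left 4 calls of 9 in MEFs, 10 of 20 for pre_p38i against ctr and 16 of 25 for p38i against ctr, with fewer libraries behind the estimate of spread. Leaving out single libraries gave 7 to 8 calls in MEFs, 18 to 21 for pre_p38i, 24 to 26 for p38i and 27 to 29 for p38i against pre_p38i. Mmp10 between p38i and pre_p38i over days (0.03) ranged from −0.0343 to 0.0943 with single libraries left out, and was 0.28 after quantile normalization (limma, adjusted p = 0.0281). Mmp9 and Mmp13 were not tested with a minimum mean of 5.

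Same-numbered libraries did not deviate together (correlations −0.08 to 0.09 over 91 pairs of groups). With a replicate block of 1 effect the counts were 9 in MEFs, 21, 25 and 29 in the same order. With the replicate block within time point they were 8, 20, 25 and 29. Of all genes called in p38i against ctr over days, 31.2% were higher, against 54.4% after quantile normalization and 41.5% with median of ratios scaling, and for pre_p38i the split was 60.6% against 46.9% with the latter. Depth is unknown, and values near 0 limit Mmp9, Mmp10 and Mmp13.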
